A study of Mus musculus with 16 samples.

Results

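Malat1 and Neat1 are long noncoding RNAs that stay in the nucleus, and newly made copies of both were measured in mouse embryonic stem cells with and without Mettl14. They were picked by their Ensembl gene identifiers, ENSMUSG00000092341.2 for Malat1 and ENSMUSG00000092274.3 for Neat1, which are 2 of the 54446 mouse identifiers counted in every library. Both passed the filter on low counts, as did 27488 identifiers in all. No measured value entered the rule that picked these genes, but the choice was made with earlier results of these data known.

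The tested cells carried a Mettl14 conditional knockout, labelled CKO, and were set against cells labelled Control, both of strain C57BL/6. METTL14 pairs with the catalytic subunit METTL3 to write N6-methyladenosine (m6A) on RNA, and the series asked how transcription rates change when it is lost. All cells grew in serum with LIF and the inhibitors CHIR99021 and PD0325901, which keep mouse stem cells undifferentiated, and received 0.5 mM 5-ethynyl uridine (EU) for 10, 20, 30 or 60 min, 48 h after seeding. EU is built into RNA as it is transcribed and serves as a handle for capture. There were 2 libraries for each genotype and EU time, 16 in all. The labels do not give the alleles, the way the gene was deleted, the number of clones, or whether replicate libraries were separate cultures. The p-values therefore measure the spread between these samples only, which may be technical. The identity of the cells and the loss of Mettl14 itself were not checked here, since no other identifier is paired with a gene name.

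Malat1 is transcribed by RNA polymerase II and gathers in nuclear speckles, bodies rich in splicing factors. Its 3′ end is made by RNase P, which releases a small tRNA-like RNA called mascRNA, and a triple helix then protects the end of the long transcript. Neat1 is the scaffold of paraspeckles, bodies that hold RNA-binding proteins, and it is made as a short and a long form from the same start site. Both RNAs are largely unspliced and carry m6A, and in human cells m6A in MALAT1 is known to open a hairpin to the binding protein HNRNPC.

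The genes are neighbours. In the RefSeq annotation of GRCm38.p6, the assembly that mm10 stands for, Malat1 lies on chromosome 19 from 5795690 to 5802672, a span of 6983 bases with 1 RefSeq transcript. The mascRNA entry, 58 bases long, lies inside that span from 5795924 to 5795981. Neat1 lies from 5824708 to 5845480, a span of 20773 bases with 2 RefSeq transcripts, and 22035 bases separate it from Malat1. Beyond Neat1 the nearest annotated gene is the coding gene Frmd8, 5493 bases away, whose values were not analysed here.

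No promoter window was available for Neat1, so only that of Malat1 is shown. It runs from 250 bases before to 50 bases after the annotated start, on the minus strand at chr19:5802623-5802922 of GRCm38.p6 (RefSeq), and is written 5′ to 3′ along the gene with matches to TGACGT in capitals.
Malat1 promoter: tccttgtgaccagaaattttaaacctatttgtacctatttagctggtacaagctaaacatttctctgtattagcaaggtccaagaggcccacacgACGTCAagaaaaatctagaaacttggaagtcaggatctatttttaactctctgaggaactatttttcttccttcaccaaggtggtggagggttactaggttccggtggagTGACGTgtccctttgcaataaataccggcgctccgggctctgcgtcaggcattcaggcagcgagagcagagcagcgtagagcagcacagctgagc
The letters TGACGT, the core of the cAMP response element, were searched on both strands and matched at 2 places that do not overlap, from −155 to −150 and from −45 to −40 counted from the start site. Of 32851 RefSeq promoter windows of the same length, 7.51% hold this motif. The TATA box letters TATAAA had no match on either strand of this window and are held by 13.6% of all windows. Likewise without a match were the CCAAT box (letters CCAAT, held by 37.4%), the GC box (letters GGGCGG, held by 35.7%) and the E-box (letters CACGTG, held by 7.15%). These matches describe the sequence only, and no factor was measured.

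Malat1 was among the most abundant captured RNAs in every library. Its rank by count among all identifiers was 2 in 10 libraries and 3 in the other 6, with 66802 to 342849 counts. Neat1 ranked between 65 and 278, with 3957 to 18922 counts. Per kilobase of gene span, Malat1 reached 1360 to 2581 CPM (counts scaled to a common mouse total) and Neat1 23.5 to 51.0 CPM, a ratio between 37.1 and 66.7 with a median of 51.4. That comparison takes the whole annotated span of each gene and does not separate the short and the long form of Neat1. Counting error was at most 0.387% for Malat1 and 1.59% for Neat1, for counting error only. Replicate libraries lay at most 0.09 apart on the log2 CPM scale for Malat1 and at most 0.11 for Neat1.

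The libraries held 5109162 to 26557342 mouse counts in CKO and 12883425 to 28502750 in Control. Both CKO 30 min libraries stood apart, with the fewest mouse counts (5188643 and 5109162) and the most identifiers detected (30583 and 31826, against 21173 to 26857 in the others). Changes are given on the log2 scale from edgeR, an error model for counts, with TMM scaling, which sets each library against the bulk of its genes. A gene was called when its p, adjusted by Benjamini-Hochberg over all 27488 identifiers, was under 0.05. TMM did not centre the 30 min comparison: the median log2 difference was 0.61 over all identifiers tested, but −0.65 over the 2134 with a mean of at least 100 CPM.

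Malat1 made up a smaller share of captured RNA in CKO after 10 min of EU. Its level was 11769 and 11977 CPM in the CKO libraries, against 16812 and 16486 CPM in the Control libraries. Every CKO library lay below every Control library. The log2 difference was −0.41 (SE 0.05, edgeR adjusted p = 6.31e-07), in a comparison where 11.8% of identifiers were called. Of the 2134 identifiers with at least 100 CPM, 85.2% had a higher log2 difference than Malat1. A smaller share is not a smaller amount. Per 1000 counts of the ERCC spike-in RNA, Malat1 was at 336 and 411 in CKO, above 194 and 202 in Control. All mouse counts per ERCC count were also higher in CKO at this time. In these bulk libraries, a change in the number of cells making an RNA and a change in RNA per cell cannot be told apart.

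After 20 min the Malat1 shares were close. The CKO libraries held 17958 and 18022 CPM, against 16853 and 16914 CPM in Control. The log2 difference of 0.09 (SE 0.05) did not pass (edgeR adjusted p = 0.778), where 0.96% of identifiers were called. A fit of these 4 libraries alone gave 0.09 with an edgeR adjusted p of 0.00117, which rests on the spread of these 4 only. The share of identifiers called in that fit is not given here.

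After 60 min Malat1 made up a larger share in CKO. It had 11319 and 12067 CPM in the CKO libraries, against 9614 and 9499 CPM in Control. The log2 difference was 0.34 (SE 0.05, edgeR adjusted p = 5.22e-05), where 2.63% of identifiers were called. Among the identifiers of at least 100 CPM, 15.1% had a higher log2 difference.

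The 30 min value of Malat1 turned with the scaling. Its unscaled shares were 12875 and 13374 CPM in CKO, against 12854 and 12802 CPM in Control. TMM gave a log2 difference of −0.25 (SE 0.05, edgeR adjusted p = 0.000145), while 48.5% of identifiers were called. With library totals it was 0.03 (edgeR adjusted p = 0.548), and with TMM computed on identifiers of at least 100 CPM it was 0.43 (edgeR adjusted p = 7.45e-08). No direction is therefore given for Malat1 at 30 min.

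**Figure D1:**
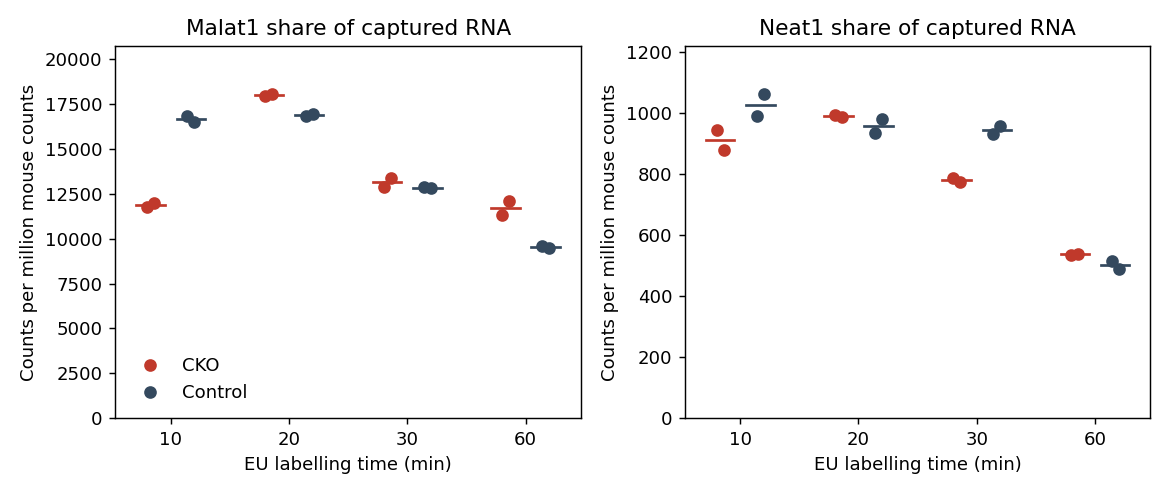
CPM of Malat1 (left) and Neat1 (right) in each library by EU time, with CKO in red and Control in dark blue, points for libraries and bars for the mean of 2. Malat1 lies at 11769 and 11977 CPM in CKO at 10 min, below the Control libraries, and at 11319 and 12067 CPM in CKO at 60 min, above them.

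The genotype difference in the share of Malat1 had opposite signs at 10 and 60 min. With ERCC totals as library sizes both were positive, 0.91 at 10 min (edgeR adjusted p = 0.00151) and 0.39 at 60 min (edgeR adjusted p = 1). That scaling called 11962 of 27488 identifiers at 10 min and 12 at 60 min. The test of genotype by EU time, with 3 degrees of freedom, was passed by Malat1 (edgeR adjusted p = 2.07e-08), where 22.7% of identifiers were called. Without the 30 min libraries its signs at 10 and 60 min and both calls were the same. Of the 27488 identifiers, 30 (0.109%) were called lower in CKO at 10 min and higher in CKO at 60 min, and 2 (0.00728%) the other way round. Averaged over the EU times, the Malat1 log2 difference was −0.06 (SE 0.11) and did not pass (edgeR adjusted p = 0.766), where 11.5% of identifiers were called.

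The Neat1 share gave no call between the genotypes at 10, 20 or 60 min under TMM. After 10 min it had 943 and 876 CPM in CKO, against 989 and 1059 CPM in Control. The CKO libraries lay below the Control libraries, but the log2 difference of −0.10 (SE 0.07) did not pass (edgeR adjusted p = 0.402). After 20 min it had 991 and 985 CPM in CKO, against 932 and 979 CPM in Control, a log2 difference of 0.05 (SE 0.07, edgeR adjusted p = 1). After 60 min it had 533 and 538 CPM in CKO, against 514 and 489 CPM in Control, a log2 difference of 0.15 (SE 0.07, edgeR adjusted p = 0.426). The sign of Neat1 under TMM matched that of Malat1 at these 3 times. With ERCC totals as library sizes the 10 min difference of Neat1 was 1.22 (edgeR adjusted p = 4.67e-05), where 11962 of 27488 identifiers were called.

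At 30 min Neat1 had 787 and 774 CPM in CKO, against 930 and 955 CPM in Control. The log2 difference was −0.55 (SE 0.07, edgeR adjusted p = 4.39e-07), where 48.5% of identifiers were called. This lay within the quartiles of the 2134 identifiers of at least 100 CPM, −0.89 and −0.40. It was −0.28 with median-of-ratios size factors (edgeR adjusted p = 0.00267), −0.27 with library totals (edgeR adjusted p = 0.00279) and −0.61 with ERCC totals (edgeR adjusted p = 0.0339). Those scalings called 12745, 12839 and 11623 of 27488 identifiers. With TMM computed on the identifiers of at least 100 CPM, a scaling chosen after seeing the data, it turned to 0.12 (edgeR adjusted p = 0.129). Neat1 passed the test of genotype by EU time with all libraries (edgeR adjusted p = 1.66e-05) but not without the 30 min libraries (edgeR adjusted p = 0.156). Averaged over the EU times its log2 difference was −0.11 (SE 0.10, edgeR adjusted p = 0.478), and 0.02 without the 30 min libraries (edgeR adjusted p = 0.892).

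**Figure D2:**
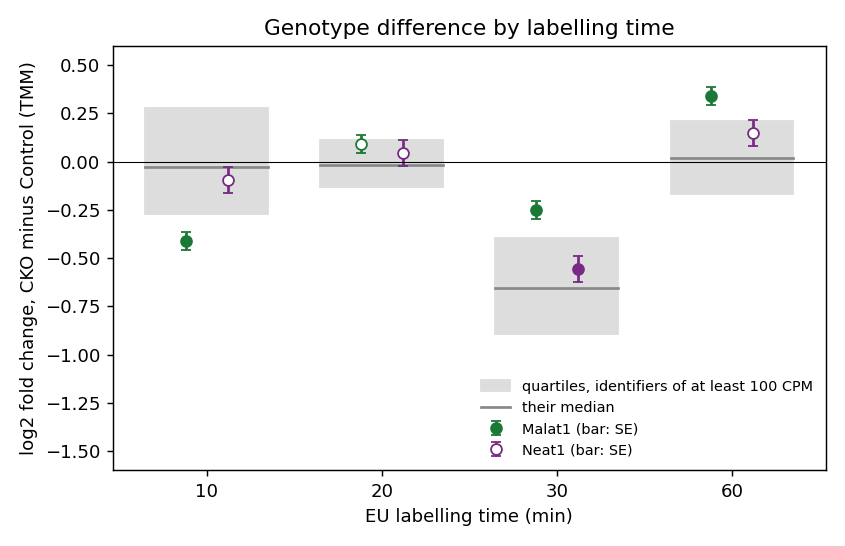
Log2 fold change of CKO minus Control under TMM at each EU time for Malat1 (green) and Neat1 (purple), with SE bars, filled points for calls, and grey boxes and lines for the quartiles and median of 2134 identifiers of at least 100 CPM. Malat1 lies below the box at 10 min (−0.41) and above it at 60 min (0.34), and Neat1 lies inside all 4 boxes.

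**Figure D3:**
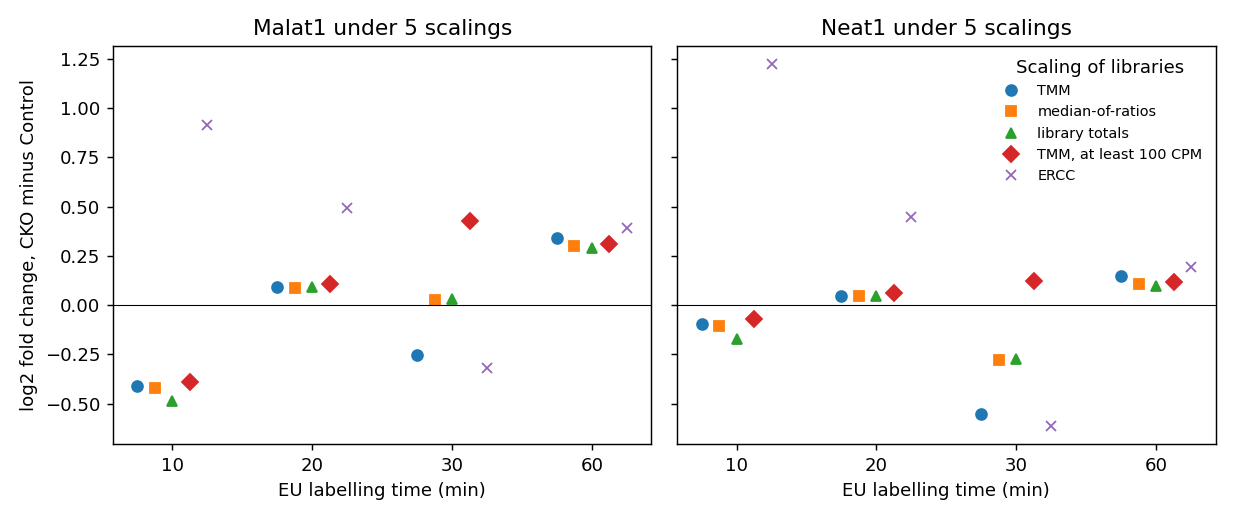
Log2 fold change of CKO minus Control at each EU time under 5 ways of scaling the libraries, Malat1 on the left and Neat1 on the right. Under ERCC scaling both RNAs are higher in CKO at 10 min (0.91 and 1.22), and at 30 min the sign of each depends on the scaling.

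The shares of both RNAs also changed with the length of labelling, and here the genotypes parted for Malat1. In CKO, Malat1 averaged 11873 ± 147 CPM at 10 min, 17990 ± 45.7 at 20 min, 13125 ± 353 at 30 min and 11693 ± 528 at 60 min (SD, n = 2 each). In Control it averaged 16649 ± 231 CPM at 10 min, 16883 ± 43.0 at 20 min, 12828 ± 36.8 at 30 min and 9557 ± 81.5 at 60 min (SD, n = 2 each). The CKO series peaked at 20 min, while the Control series was level from 10 to 20 min and then declined.

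Between 10 and 60 min the Malat1 share changed by 0.04 on the log2 scale in CKO (SE 0.05), which did not pass (edgeR adjusted p = 0.720), where 15.2% of identifiers were called. The sign was negative, −0.02, without the second CKO 60 min library. In Control it fell by 0.72 (log2 change −0.72, SE 0.05, edgeR adjusted p = 7.15e-11), where 10.1% of identifiers were called. Of the identifiers of at least 100 CPM, 99.1% had a higher value. The difference between those changes, CKO minus Control, was 0.75 (SE 0.07, edgeR adjusted p = 5.26e-08), where 2.51% of identifiers were called. With ERCC totals the changes were 2.15 in CKO and 2.67 in Control, and their difference was −0.52 (edgeR adjusted p = 0.262).

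Steps between neighbouring EU times placed these changes. From 10 to 20 min Malat1 rose by 0.57 in CKO (SE 0.05, edgeR adjusted p = 1.93e-08), where 8.26% of identifiers were called. The same step in Control was 0.07 (SE 0.05, edgeR adjusted p = 0.659), where 1.07% were called. With ERCC totals the order turned, with 1.53 in CKO (edgeR adjusted p = 1.16e-05) and 1.95 in Control (edgeR adjusted p = 9.85e-09). There 8556 and 14546 of 27488 identifiers were called. In Control Malat1 then fell by 0.43 from 20 to 30 min (edgeR adjusted p = 1.54e-06), where 1.39% were called. It fell by 0.36 from 30 to 60 min (edgeR adjusted p = 2.01e-05), where 3.15% were called. With ERCC totals these Control steps were 0.45 and 0.26 (edgeR adjusted p = 0.157 and 0.536). The CKO steps into and out of 30 min were −0.77 and 0.23 for Malat1. The medians for identifiers of at least 100 CPM were −0.66 and 0.78 in the same steps. Of those identifiers, 62.8% had a higher value than Malat1 in the first step and 91.6% in the second. With TMM computed on them, a scaling chosen after seeing the data, the second step was −0.55 (edgeR adjusted p = 7.13e-10). Of all identifiers, 49% and 52.6% were called in those steps.

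The Neat1 share was lowest at 60 min in both genotypes. In CKO it averaged 910 ± 47.3 CPM at 10 min, 988 ± 4.65 at 20 min, 781 ± 8.92 at 30 min and 536 ± 3.55 at 60 min (SD, n = 2 each). In Control it averaged 1024 ± 49.4 CPM at 10 min, 955 ± 32.8 at 20 min, 943 ± 17.9 at 30 min and 501 ± 17.7 at 60 min (SD, n = 2 each). In each genotype every 60 min library lay below every library of the shorter times.

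From 10 to 60 min the Neat1 share fell by 0.70 in CKO (SE 0.07, edgeR adjusted p = 2.04e-08), where 15.2% of identifiers were called. In Control it fell by 0.95 (SE 0.07, edgeR adjusted p = 3.83e-10), and 99.6% of the identifiers of at least 100 CPM had a higher value. The difference of 0.24 between the genotypes (SE 0.10) did not pass (edgeR adjusted p = 0.217), though DESeq2 gave 0.21 with a DESeq2 adjusted p of 0.0252. With ERCC totals the changes were 1.41 in CKO and 2.44 in Control. Their difference was −1.03 (edgeR adjusted p = 0.0166), where 8014 of 27488 identifiers were called. In Control nearly all of the fall in share came between 30 and 60 min, with a log2 change of −0.85 (SE 0.07, edgeR adjusted p = 4.81e-09). With ERCC totals this step was −0.22 and did not pass (edgeR adjusted p = 0.622). The earlier Control steps were −0.05 and −0.05, with edgeR adjusted p of 0.903 and 0.975. In CKO the first step was 0.09 (edgeR adjusted p = 0.489). The CKO steps into and out of the 30 min libraries were −0.65 (edgeR adjusted p = 3.46e-08) and −0.14 (edgeR adjusted p = 0.0772). The medians for identifiers of at least 100 CPM were −0.66 and 0.78, and 49% and 52.6% of all identifiers were called. With ERCC totals the step into 30 min was −0.23 for Neat1 and did not pass (edgeR adjusted p = 0.457). The last CKO step was −0.45 with median-of-ratios size factors (edgeR adjusted p = 1.35e-05) and −0.54 with library totals (edgeR adjusted p = 4.86e-07). It was 0.58 with ERCC totals (edgeR adjusted p = 0.0324). These scalings called 13995, 14013 and 15478 of 27488 identifiers. In all, 512 identifiers (1.86%) were called lower at 60 than at 10 min in both genotypes, and Neat1 was among them while Malat1 was not.

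A share does not give the amount of labelled RNA, which was set against spike-ins. ERCC spike-in RNA was added after capture, so counts per 1000 ERCC counts also carry cell number, recovery and capture yield. On this scale Malat1 in CKO reached 336 and 411 at 10 min, 1082 and 1069 at 20 min, 1050 and 634 at 30 min, and 1444 and 1865 at 60 min. In Control it reached 194 and 202 at 10 min, 767 and 764 at 20 min, 1018 and 1082 at 30 min, and 1274 and 1245 at 60 min. The CKO libraries lay above the Control libraries at 10, 20 and 60 min and overlapped them at 30 min. All mouse counts per ERCC count were also higher in CKO at 10 and 20 min.

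The 60 min level of Malat1 per spike-in was 4.43 times the 10 min level in CKO and 6.36 times in Control. All mouse counts together grew 4.49-fold in CKO and 11.1-fold in Control over the same interval. These growth values are means over 2 libraries a group and were not tested against each other.

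Neat1 in CKO reached 26.9 and 30.1 counts per 1000 ERCC counts at 10 min, 59.7 and 58.4 at 20 min, 64.2 and 36.7 at 30 min, and 68.1 and 83.2 at 60 min. In Control it reached 11.4 and 13.0 at 10 min, 42.5 and 44.2 at 20 min, 73.6 and 80.7 at 30 min, and 68.1 and 64.1 at 60 min. The Control level at 60 min was below that at 30 min in both libraries. From 10 to 60 min Neat1 grew 2.65-fold in CKO and 5.41-fold in Control, less than all mouse counts in each genotype.

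**Figure D4:**
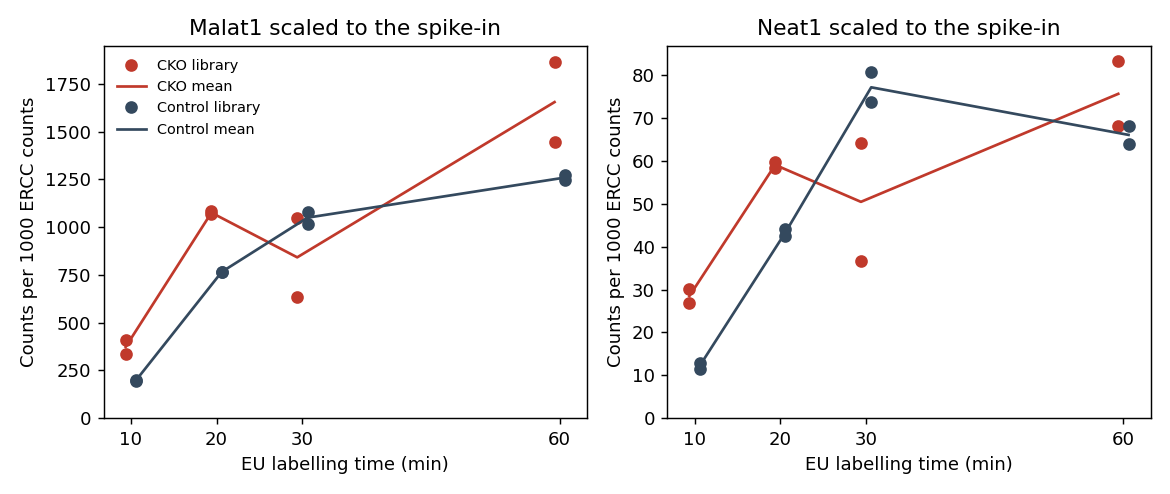
Counts per 1000 ERCC counts for Malat1 (left) and Neat1 (right) against EU minutes, with points for libraries and lines through the means of 2, CKO in red and Control in dark blue. At 10 min the CKO libraries lie above the Control libraries for both RNAs, and the CKO 30 min libraries lie far apart, at 1050 and 634 for Malat1.

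Averaged over the EU times, the spike-in scaled level was higher in CKO by 0.35 on the log2 scale for Malat1 (1.28-fold, exact two-sided permutation p = 0.0787 over 1296 assignments, Benjamini-Hochberg 0.236 over 3 tests). For Neat1 it was higher by 0.30 (1.23-fold, exact permutation p = 0.188, Benjamini-Hochberg 0.282). Neither passed, and the smallest p possible with all 16 libraries was 0.00154. All mouse counts per ERCC count were also higher in CKO at 10 and 20 min. These values therefore do not set Malat1 or Neat1 apart from captured RNA as a whole, for which the same average was not computed. Without the 30 min libraries the log2 differences were 0.59 for Malat1 (exact permutation p = 0.00926) and 0.62 for Neat1 (exact permutation p = 0.0185), both unadjusted. The smallest p possible without those libraries was 0.00926. The Malat1 value was 0.45 without the second CKO 30 min library (exact permutation p = 0.00463) and 0.40 without the first CKO 60 min library (exact permutation p = 0.0432), again unadjusted. The log2 difference was largest at 10 min, 0.91 (SE 0.15) for Malat1 and 1.22 (SE 0.12) for Neat1, among the 4 EU times. At 10 min the CKO libraries held 11902184 and 13144401 mouse counts, with 416625 and 383213 ERCC counts. The Control libraries held 13317010 and 14879856 mouse counts, with 1152605 and 1213749 ERCC counts. All mouse counts together were thus also higher per ERCC count in CKO. Both RNAs rose less than that total, since their CPM was lower in CKO. With 2 libraries against 2, a single EU time allows no exact test below the threshold.

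The Neat1 to Malat1 ratio needs no scaling between libraries and showed how the pair moved against each other. In CKO there were 8.01 and 7.32 Neat1 counts per 100 Malat1 counts at 10 min, 5.52 and 5.46 at 20 min, 6.11 and 5.79 at 30 min, and 4.71 and 4.46 at 60 min. In Control there were 5.89 and 6.43 at 10 min, 5.53 and 5.79 at 20 min, 7.23 and 7.46 at 30 min, and 5.34 and 5.15 at 60 min. The CKO libraries lay above the Control libraries at 10 min and below them at 20, 30 and 60 min, with no overlap at any of the 4 times. At 20 min the gap was small, 5.52 in CKO against 5.53 in Control. With so few libraries in each group, a lack of overlap can arise by chance. How often the ratios of other RNA pairs separate in this way was not computed, so no pattern is drawn from it.

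On the log2 scale the ratio differed, CKO minus Control, by 0.32 (SE 0.09) at 10 min, −0.04 (SE 0.03) at 20 min, −0.30 (SE 0.05) at 30 min and −0.19 (SE 0.05) at 60 min. These single times were not tested. Averaged over the EU times the difference was −0.06 (exact permutation p = 0.452, Benjamini-Hochberg 0.452 over 3 tests), and it was 0.03 without the 30 min libraries (exact permutation p = 0.759, unadjusted).

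**Figure D5:**
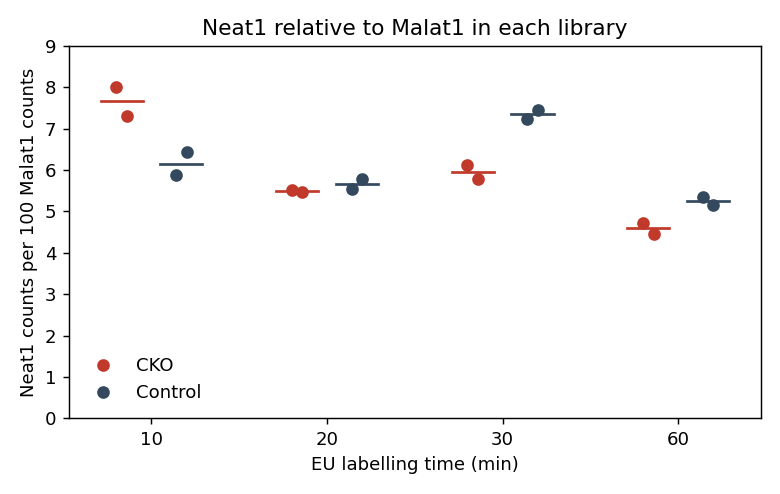
Neat1 counts per 100 Malat1 counts in each library by EU time, CKO in red and Control in dark blue, with points for libraries and bars for the mean of 2. CKO lies above Control at 10 min (8.01 and 7.32 against 5.89 and 6.43) and below it at 30 and 60 min.

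The identifiers whose TMM scaled log2 CPM followed each RNA most closely were sought among 9482 others with a mean of at least 10 CPM, over the 14 libraries other than CKO 30 min. These libraries share their genotype and EU time groups, so the values describe likeness only. For Malat1 the highest Pearson r was 0.943 for ENSMUSG00000078190.7 (mean 12.9 CPM), then 0.923 for ENSMUSG00000096751.3 (mean 26.7 CPM), neither of which the files pair with a gene name. For Neat1 it was 0.961 for ENSMUSG00000074578.13 (mean 230.4 CPM) and 0.960 for ENSMUSG00000105979.1 (mean 17.9 CPM), also unnamed. Malat1 and Neat1 had an r of 0.753 with each other, so that Neat1 stood at rank 66 for Malat1 and Malat1 at rank 308 for Neat1. With all 16 libraries, other identifiers headed the Malat1 ranking, while ENSMUSG00000105979.1 was closest to Neat1, with an r of 0.950.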

How the data were processed

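Each library's deposited file holds raw counts for mouse identifiers and ERCC species, made by the authors with CASAVA, Trimmomatic 0.38, HISAT2 2.1.0 and HTSeq on mm10, per the submitters' processing notes. No source used here names the annotation release or the strand setting, so reads of overlapping or antisense genes could sit in either count. Malat1 and Neat1 and the gene lists were chosen with earlier results of these data known. The gene table matched 0 identifiers by Ensembl number, so the lists of speckle, paraspeckle, processing and other noncoding RNA genes, the neighbours, the cell type markers and Mettl14 were not analysed here. That also reduced the rule for named genes to Malat1, Neat1 and, for each, the 2 identifiers most like it.

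All 27488 identifiers that passed edgeR's low-count filter were fitted with edgeR 4.0.16 in R 4.3.3 (quasi-likelihood F-test, robust, TMM, Benjamini-Hochberg). The overall difference came from EU time plus genotype, and all others from 8 group means. Steps between neighbouring EU times were added after the values were seen. SEs came from the F statistic. The code was tested on simulated data. Spike-in scaled levels and ratios were tested by exactly permuting the genotypes at each EU time. Likeness used log2 of TMM scaled CPM plus 0.5. Replicates differed beyond counting noise in all 8 groups (chi-square over its degrees of freedom at least 3.59). Same-numbered CKO and Control libraries did not deviate together (r between −0.01 and 0.02 over 9483 identifiers), so the numbers were not taken as pairs. Alternatives included DESeq2 1.42.0, other scalings, no filter, a replicate block and left-out libraries.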

Additional observations from a re-analysis of the deposited data

Results flagged for a closer look

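The difference between CKO and Control changed with EU time for both RNAs by the test of genotype by EU time. The edgeR adjusted p was 2.07e-08 for Malat1 and 1.66e-05 for Neat1. For Malat1 the log2 difference was −0.45 at 10 min and 0.34 at 60 min without the 30 min libraries (edgeR adjusted p = 6.49e-06 and 0.000538). With ERCC totals as library sizes and all libraries, Malat1 was 0.91 at 10 min and 0.39 at 60 min (edgeR adjusted p = 0.00151 and 1), both positive, and −0.32 at 30 min (edgeR adjusted p = 0.270). For Neat1 the edgeR adjusted p of the test was 0.156 without the 30 min libraries.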

How the results depend on the processing

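In log2 fold changes, Malat1 at 30 min, in CKO from 10 to 60 min and in CKO from 30 to 60 min came to 0.0261, −0.0198 and −0.0707 with median-of-ratios size factors in edgeR and 0.0261, −0.0198 and −0.0707 with DESeq2. Library totals gave 0.0329, −0.0220 and −0.17. Neat1 at 30 min kept its call at −0.28 and −0.27 with median-of-ratios and library totals, and Neat1 in CKO from 30 to 60 min gained one at −0.45 and −0.54. TMM over identifiers of at least 100 CPM, chosen after seeing the data, gave 0.43, −0.12 and −0.55. It also gave 0.12 for Neat1 at 30 min, 0.0204 for Neat1 in CKO from 20 to 30 min, 0.11 and 0.0573 for Malat1 and Neat1 over all EU times, and an edgeR adjusted p of 0.317 for Neat1 by genotype and EU time. ERCC totals gave 0.91 and 1.22 for Malat1 and Neat1 at 10 min, −0.32 and 0.39 for Malat1 at 30 and 60 min (edgeR adjusted p = 0.270 and 1), and 0.37 and 0.31 for Malat1 and Neat1 over all EU times. From 10 to 60 min they gave 2.15 and 1.41 for Malat1 and Neat1 in CKO, 2.67 and 2.44 in Control, and −0.52 and −1.03 for CKO minus Control. Under ERCC totals the CKO steps to 20 min were 1.53 and 1.05 for Malat1 and Neat1. The CKO steps from 20 to 30 min lost their calls, at −0.35 for Malat1 and −0.23 for Neat1 (edgeR adjusted p = 0.237 and 0.457). Neat1 in CKO from 30 to 60 min was 0.58. The Control steps were 1.95 and 1.83 for Malat1 and Neat1 to 20 min, and 0.45 and 0.83 to 30 min. To 60 min they were 0.26 for Malat1 and −0.22 for Neat1, which lost its call. Without the 30 min libraries, Neat1 by genotype and EU time had an edgeR adjusted p of 0.156 and Neat1 over all EU times a difference of 0.0173. Without the CKO 30 min libraries, also added after seeing the data, these were 0.260 and 0.0179. The spike-in differences without the 30 min libraries were 0.59 for Malat1 and 0.62 for Neat1, and the ratio difference 0.0265. The slope on EU minutes gave −0.23 for the Neat1 spike-in level. The 4 libraries of 20 min alone called Malat1 (0.0929), and DESeq2 called Neat1 from 10 to 60 min, CKO minus Control (0.21). The cause was not tested for any of these. With each library left out in turn, Malat1 from 10 to 60 min in CKO ranged from −0.0239, without the second CKO 60 min library, to 0.0956. Neat1 from 10 to 20 min in Control ranged from −0.11 to 0.00490, the positive end without the second Control 10 min library. The Malat1 spike-in difference ranged from 0.26 to 0.45, and it passed, unadjusted, without the second CKO 30 min or the first CKO 60 min library. All other results kept sign and side of the threshold when a library was left out. The replicate block changed no sign or call, with −0.41 for Malat1 at 10 min, 0.34 at 60 min and exact permutation p of 0.125, 0.297 and 0.539 for the Malat1 and Neat1 spike-in levels and the ratio. Omitting the low-count filter changed no sign or call either. Counting error was at most 1.59% for either RNA.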
